A study of Spinacia oleracea with 6 samples.

Results

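The 268 genes described here were well-expressed genes of spinach, Spinacia oleracea, whose RNA level stayed within a narrow range over 6 libraries from 2 temperature regimes. Plants grew in an illumination incubator for 4 days, the control plants with day and night temperatures of 20 and 15 °C and the heat plants with 35 and 25 °C, and 3 RNA sequencing libraries were made for each regime. The labels give no tissue, cultivar or plant age, and they do not say whether replicate libraries stand for different plants. Each annotated gene's read counts were divided by the library's size factor, the median ratio of its counts to the genes' geometric means, and expressed as CPM (counts per M counts of the mean library total). A gene was kept if its mean over the 6 libraries was at least 50 CPM and its highest value was at most 1.3 times its lowest. This left 268 of 3697 annotated genes of at least 50 CPM (7.25%) and of 30732 annotated genes in all (0.872%). All 6 libraries chose the members, so their evenness between heat and control is a description of the choice and was given no test.

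Genes whose RNA stays level across conditions are often called housekeeping genes, because many of them encode parts of basic cell machinery such as protein synthesis, protein turnover and central carbon metabolism. In plants, actin, tubulin, elongation factor and ubiquitin genes have long served as internal references for measuring other transcripts. Such a gene is steady only relative to the quantity used for scaling, and in a bulk sample fewer cells of a type and less RNA per cell cannot be told apart.

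The libraries held between 42.3 and 56.8 M counts, and the size factors ran from 0.784 in control library 3 to 1.14 in heat library 1. No members rested on few reads. The lowest count of a member in any library was 1702 reads and the median was 3946, at which counting error alone gives an SD of 1.59%. The median coefficient of variation of the members over the 6 libraries was 8.14%, and for 266 of 268 members it was more than 2 times the counting SD at that gene's mean count.

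Only 2 members (0.746%) carried a gene name in the reference table of the BTI_SOV_V1 assembly, beside 99 of the 3697 well-expressed genes (2.68%). Both encode proteins of the plastid, as do many other genes named in that table. Hxk1 (LOC110775512) encodes a hexokinase, the enzyme that phosphorylates glucose, which in spinach is attached to the outer envelope of plastids. It stood at 58.2, 63.2 and 62.0 CPM in control libraries 1 to 3 and at 63.4, 57.5 and 64.7 CPM in heat libraries 1 to 3. The groups overlapped, with 61.1 ± 2.62 CPM in control and 61.9 ± 3.86 CPM in heat (mean ± SD, n = 3 each), and the highest value was 1.13 times the lowest. By that ratio Hxk1 ranked 12 among the 3697 genes, the steadiest of 99 well-expressed genes with a name.

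PSRP2 (LOC110774927) encodes a plastid-specific ribosomal protein of the small subunit of the chloroplast ribosome. Its levels were 116, 93.3 and 96.0 CPM in control libraries 1 to 3 and 104, 102 and 97.9 CPM in heat libraries 1 to 3. Control library 1 was the highest and the other 5 libraries lay close together, so that the spread within control (1.25-fold) exceeded that within heat (1.06-fold). The ratio of highest to lowest was 1.25 and fell to 1.11 without control library 1. Group means were 102 ± 12.5 CPM in control and 101 ± 2.99 CPM in heat (SD, n = 3 each). The number of Hxk1 reads per PSRP2 read, which needs no scaling between libraries, was 0.501, 0.678 and 0.645 in control and 0.612, 0.562 and 0.661 in heat. Its highest value was 1.35 times its lowest, and since the rule chose both genes on the same counts, the ratio is a description only.

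The members with the smallest ratio of highest to lowest had no name, and what they encode is not analysed here. LOC110789720 had the smallest ratio of all 3697 genes, 1.09, with 92.3, 89.3 and 89.2 CPM in control and 84.8, 91.4 and 92.6 CPM in heat. Heat library 1 was its lowest, and without that library the ratio was 1.04. LOC110785821 followed with a ratio of 1.10, at 59.5, 59.4 and 56.2 CPM in control and 62.0, 56.6 and 57.4 CPM in heat. LOC110802127 also had a ratio of 1.10, and its highest level, as for LOC110785821, was in heat library 1. The next 5 genes, LOC110805114, LOC110775788, LOC110794682, LOC110793272 and LOC110799898, had ratios from 1.11 to 1.12 and mean levels from 50.6 to 296.3 CPM. Among these 8 genes the groups overlapped for all but LOC110793272, which had 48.0, 48.7 and 49.6 CPM in control and 52.3, 51.0 and 53.7 CPM in heat.

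**Figure D1:**
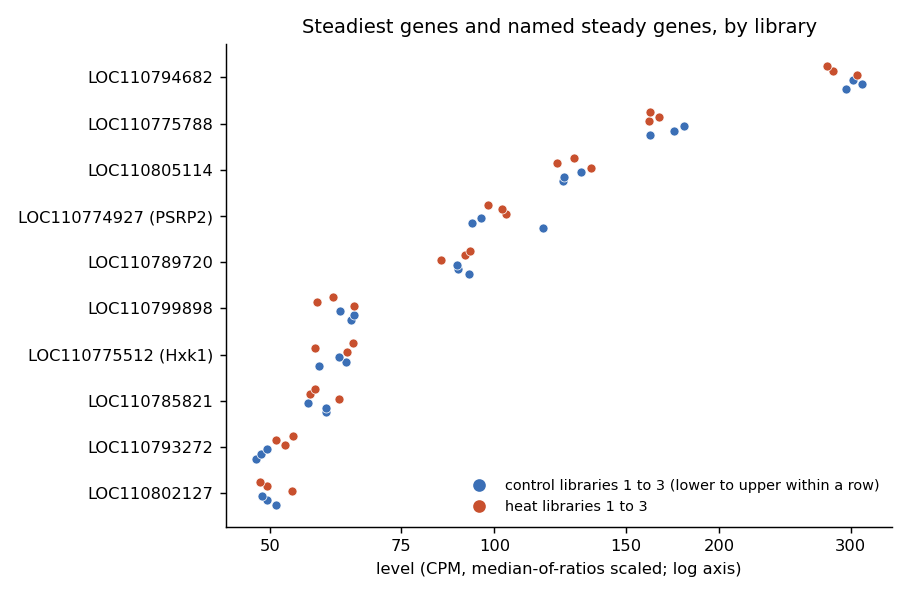
Level in CPM on a log axis of the 8 steadiest genes and the 2 named steady genes, with 1 point per library and the libraries stacked within each row, control in blue and heat in orange. Control and heat points overlap in every row but that of LOC110793272, where the 3 heat points lie to the right of the 3 control points.

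The most abundant members spanned a wide range of levels. LOC110783915 was the highest, at 1403, 1452 and 1747 CPM in control and 1379, 1707 and 1467 CPM in heat, with a ratio of 1.27. Its high libraries were control 3 and heat 2, and its low libraries were control 1 and heat 1, so the variation ran within both groups rather than between them. LOC110779967 (703 CPM on average, ratio 1.15), LOC110793903 (668 CPM, ratio 1.19) and LOC110796932 (497 CPM, ratio 1.18) were the only other members above 400 CPM. LOC110798426, LOC110797422, LOC110795083 and LOC110793409 had mean levels from 316 to 373 CPM and ratios from 1.19 to 1.28. The groups overlapped for all 8 of these genes. Per length, on the authors' FPKM scale (scaled by gene length and library total), the mean level of a member ran from 12.9 to 1270 with a median of 42.7, against a median of 56.3 for all 3697 genes.

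The share of steady genes differed by level, given here as a description over genes. Of genes with a mean from 50 to 75 CPM, 121 of 1315 (9.20%) were members, and from 75 to 100 CPM 53 of 671 (7.90%). The share was 7.22% (70 of 969) from 100 to 200 CPM, 4.42% (20 of 452) from 200 to 400 CPM and 1.38% (4 of 290) at 400 CPM or more. From the lowest to the highest bin, the median ratio of highest to lowest was 1.78, 1.75, 1.87, 2.09 and 3.48. Over all 3697 genes the median ratio was 1.87, the quartiles were 1.51 and 2.96, and over the members the median was 1.24.

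At the limit of 1.3 the members passed into the other genes without a gap. Just inside it were LOC110788994, LOC110802747 and LOC110801265, with ratios of 1.298, 1.299 and 1.2995, and just outside it were LOC110777277, LOC110802806 and LOC110794082, with 1.3005, 1.3009 and 1.3013. LOC110801265, the last member, had 58.5, 68.7 and 64.5 CPM in control and 67.6, 76.0 and 64.7 CPM in heat. LOC110777277, the first gene left out, had 64.7, 60.4 and 59.4 CPM in control and 73.8, 77.2 and 76.5 CPM in heat. The groups overlapped in the former and not in the latter.

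**Figure D2:**
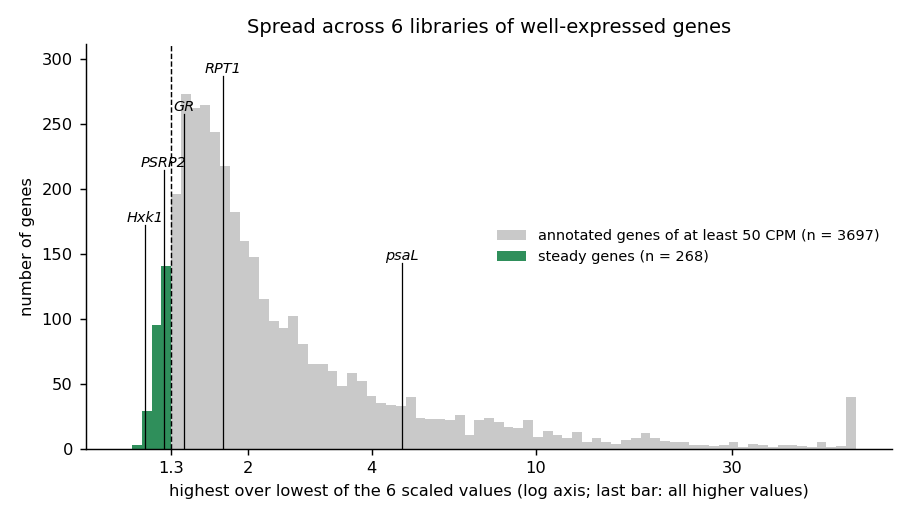
Number of annotated genes of at least 50 CPM by the ratio of the highest to the lowest of their 6 scaled values, on a log axis, with steady genes in green, all genes in grey, the limit of 1.3 dashed and 5 named genes marked. The green bars form the left edge of a single distribution that peaks above the limit, with Hxk1 and PSRP2 inside it and GR, RPT1 and psaL to its right.

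Between the groups the members differed little, as the rule required. The ratio of the heat mean to the control mean ran from 0.820 to 1.21 with a median of 1.01, and 147 members had the higher mean in heat and 121 in control. The means lay within 5% of each other for 109 members, within 10% for 207 and within 20% for 263. The fit over the whole table with edgeR's quasi-likelihood test called 25.2% of 20145 tested genes at an adjusted p below 0.05, and 35.4% of the 3697 well-expressed genes. It called 0 of the 268 members, of which 1 had an unadjusted p below 0.05, and DESeq2 and limma-voom also called 0. The rule used the same contrast, so nothing is read from these counts.

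A small offset between the groups was seen in some members and was not tested. The 3 values of one group all lay above the 3 of the other for 44 members (16.4%), 32 of them higher and 12 lower in heat. Beside this, 53.3% of the well-expressed genes had groups that did not overlap, 862 of them higher and 1108 lower in heat. LOC110775323 had the largest offset upward, at 65.7, 67.5 and 67.1 CPM in control and 83.8, 82.5 and 76.8 CPM in heat (log2 ratio of means 0.28). LOC110793180 was next, with a log2 ratio of means of 0.27. Downward, the long non-coding RNA LOC110775215 had the largest offset, with 63.4, 61.2 and 62.5 CPM in control and 49.7, 49.7 and 54.0 CPM in heat (log2 ratio of means -0.29). It was followed by LOC110806105, at -0.27. In all 4 genes the 3 libraries of a group were close together and the groups did not overlap, so these members were steadier within a temperature than between temperatures.

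The members were a fraction of the genes that were even within each temperature. Of the 3697 genes, 2046 (55.3%) stayed within 1.3-fold over the 3 control libraries, 1523 (41.2%) over the 3 heat libraries and 1020 (27.6%) within both groups taken separately. Of those 1020, 268 were the members and 752 were even within each group but spread more than 1.3-fold over all 6 libraries. Among the 752, 393 had the higher mean in heat and 359 the lower, and 121 differed by 2-fold or more, 32 higher and 89 lower in heat. Within the members, the median spread was 1.13-fold over control and 1.16-fold over heat, and it was larger in control for 100 of 268.

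The libraries contributed unequally to the remaining variation. Heat library 1 gave the highest value for 84 members, while each other library did so for 29 to 45. The lowest value fell in heat library 3 for 61 members, in control library 3 for 60, in heat library 2 for 58 and in control library 1 for 56, but in control library 2 for 17 and in heat library 1 for 16. The median member thus stood at 1.04 times its own mean in heat library 1 and between 0.975 and 1.01 times in the other 5. Over all 3697 well-expressed genes the highest value was also most often in heat library 1 (911 genes), followed by control library 3 (892). The lowest value of those genes was also most often in heat library 3 (916) and was least often in control library 2 (281).

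A gene chosen on 5 libraries was read in the library that had not been used to choose it. The 5 included other libraries of the same temperature, and replicates may be technical, so the reading is a description and no independent test. Between 317 and 468 genes met the rule on 5 libraries. In the left-out library, 78.2% to 97.8% of them lay within 1.3-fold of their mean over the other 5, against 52.7% to 58.4% of all genes of at least 50 CPM. The share was highest for control library 2 (310 of 317 genes) and lowest for heat library 2 (366 of 468 genes). With the left-out value counted in, 56.2% to 88.0% of the genes chosen on 5 libraries still met the limit of 1.3 over all 6.

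**Figure D3:**
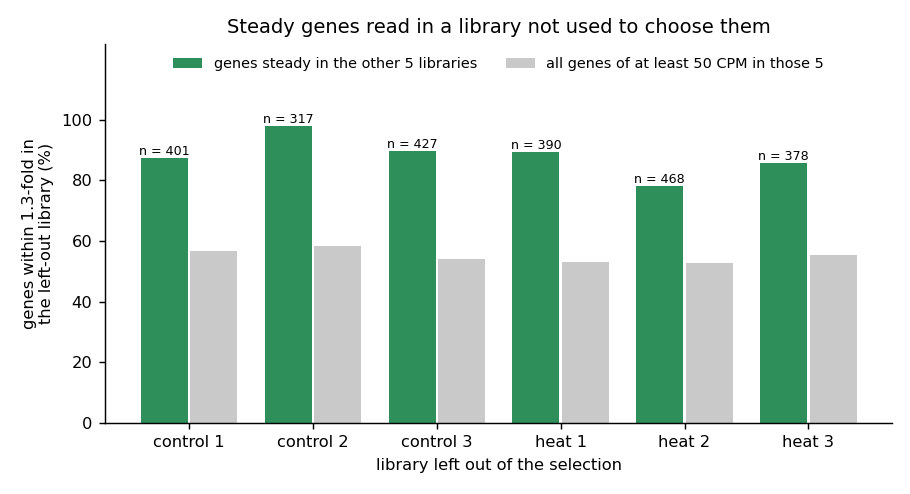
Share, in percent, of genes whose value in a library left out of the selection lay within 1.3-fold of their mean over the other 5, for genes steady in those 5 (green, n above the bar) and for all genes of at least 50 CPM (grey), by left-out library. Green bars stand between 78.2% and 97.8% and grey bars between 52.7% and 58.4%.

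The choice was also made in a single temperature and read in the other. Of 2009 genes of at least 50 CPM that stayed within 1.3-fold over the 3 control libraries, 1071 (53.3%) had a heat mean within 1.3-fold of the control mean, against 44.1% of all 3717 genes of at least 50 CPM in control. Among the rest, 321 were above and 617 below that range in heat. Choosing on the heat libraries gave 1505 genes, of which 823 (54.7%) had a control mean within 1.3-fold, against 47.0% of all 3512. The sets of all genes include the chosen ones, and the choice also leaves out genes with a variable mean in the choosing group. A higher share among the chosen is therefore partly built in, and these shares are a description and no independent test.

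The share of steady genes also differed by gene length. Length, which the rule did not use, was recovered from the deposited counts and FPKM values. Its median was 2009 bp in the members (quartiles 1509 and 2702 bp, range 701 to 7713 bp) and 1772 bp in all 3697 genes. Of genes under 1000 bp, 13 of 655 (1.98%) were members, and of those from 1000 to 1500 bp 52 of 788 (6.60%). The share was 8.98% from 1500 to 2000 bp, 10.2% from 2000 to 3000 bp, 10.3% from 3000 to 4000 bp and 3.57% (10 of 280) at 4000 bp or more. The median ratio of highest to lowest did not follow the share among the longest genes. It was 2.21 under 1000 bp, and 1.64 both from 3000 to 4000 bp and at 4000 bp or more.

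The libraries themselves differed by gene length. Over all genes of at least 50 CPM, the median gene under 1500 bp stood at 0.790 times its own mean in heat library 3, 0.908 in heat library 1 and 1.10 in control library 3. The median gene of 3000 bp or more stood at 1.04, 1.13 and 0.957 times its mean in the same libraries. Heat library 2 ran the other way from the other heat libraries, at 1.07 for the short and 0.890 for the long genes. In the members the same medians lay between 0.934 and 1.02 for genes under 1500 bp and between 0.918 and 1.08 for genes of 3000 bp or more. The part of this length dependence in which genes met the rule was not tested.

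**Figure D4:**
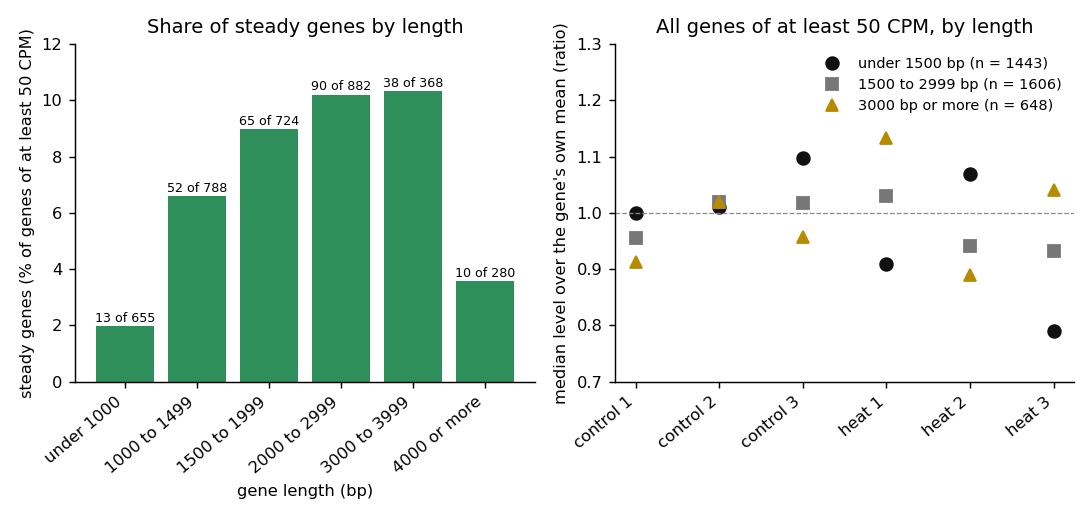
Left, share of genes of at least 50 CPM that were steady, in percent, by gene length in bp, with counts above the bars. Right, median level of all genes of at least 50 CPM relative to each gene's own mean, by library, for 3 length classes. The share of steady genes is lowest under 1000 bp (1.98%), and short and long genes lie on opposite sides of 1 in heat libraries 1, 2 and 3.

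Of the 268 members, 267 were found in the reference gene table by gene number, and 261 of them were protein-coding and 6 were long non-coding RNAs. The latter share, 2.24%, compared with 1.87% among all well-expressed genes. LOC110803952 was the most abundant of the 6, at 127, 113 and 129 CPM in control and 139, 127 and 145 CPM in heat. LOC110795664 was the steadiest, with a ratio of 1.18 and a mean of 57.7 CPM. The other 4 had mean levels from 56.1 to 64.1 CPM and ratios from 1.22 to 1.29. No source used here says whether the authors' counts separate strands, so reads of a non-coding RNA and of a gene overlapping it cannot be told apart.

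The order of genes in the annotation was not used by the rule. Of 567 pairs of well-expressed genes that are immediate neighbours in the BTI_SOV_V1 annotation, 6 consisted of a pair of members and 75 of a member and another well-expressed gene. These counts are read beside the 7.25% of well-expressed genes that were members, and whether steady genes lie together was not tested. LOC110796931 (83.8 CPM) and LOC110796932 (497 CPM) were one such pair, with ratios of 1.17 and 1.18. The log2 ratios of heat to control means in these 6 pairs had the same sign in 3 and lay between -0.09 and 0.23.

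Genes for the common references of plant studies could not be placed. Actin, tubulin, elongation factor 1-alpha, cytosolic glyceraldehyde phosphate dehydrogenase, ubiquitin, cyclophilin and the like had 0 matches by name, since the one gene with the synonym act1 encodes a glycerol phosphate acyltransferase. Their levels are not analysed here.

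The counts of members among named genes of cell machinery are read beside the 7.25% of all well-expressed genes that were members, and no difference from that share was tested. PSRP2 was the single member among 20 well-expressed nuclear genes of plastid ribosomal proteins, whose ratios ran from 1.25 to 5.01 with a median of 1.84, close to the 1.87 of all well-expressed genes. The 3 proteasome subunits, parts of the complex that degrades tagged proteins, had ratios of 1.40 (PAC1), 1.51 (PAG1) and 1.74 (RPT1). VATE, a subunit of the vacuolar proton pump, had a ratio of 1.69, while of the 2 genes of RNA-binding proteins, the helicase gene prh75 had one of 1.67 and 28RNP one of 2.86. The 25 well-expressed nuclear genes of photosynthesis and the Calvin-Benson cycle had ratios from 2.48 to 19.5 with a median of 4.07, and 0 of them were members, again beside 7.25% of all well-expressed genes.

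Besides PAC1, the named genes that came closest to the limit from outside, chosen after their values were seen, varied within the groups. GR (LOC110804376), glutathione reductase, which regenerates the antioxidant glutathione, had 98.4, 121 and 137 CPM in control and 113, 129 and 105 CPM in heat, a ratio of 1.40. SQD1 (LOC110793408), of sulfolipid synthesis, had a ratio of 1.43, and SecA (LOC110776089), which drives protein export into thylakoids, one of 1.45. SODCC (LOC110775897), a copper-zinc superoxide dismutase, had a ratio of 1.48. The groups overlapped in these 4 genes, and in the last 3 of them the spread over the heat libraries, 1.42-fold to 1.48-fold, exceeded the 1.13-fold to 1.22-fold spread over control. Heat library 2 was the lowest of the heat libraries in SQD1 and SecA and the highest in SODCC.

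The members were steady on the size-factor scale and not on the scale of library totals. Divided by library totals alone, the median member stood at 0.887, 0.856 and 0.751 times its own mean in control libraries 1 to 3 and at 1.18, 1.08 and 1.21 times in heat libraries 1 to 3. The members took 2.74%, 2.64% and 2.35% of the counts in control and 3.56%, 3.35% and 3.69% in heat. Beside this, the 10 most abundant features of each library took 12.2%, 13.9% and 16.1% of the counts in control and 8.23%, 9.62% and 8.04% in heat, and the part of that in the members' shift was not tested.

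**Figure D5:**
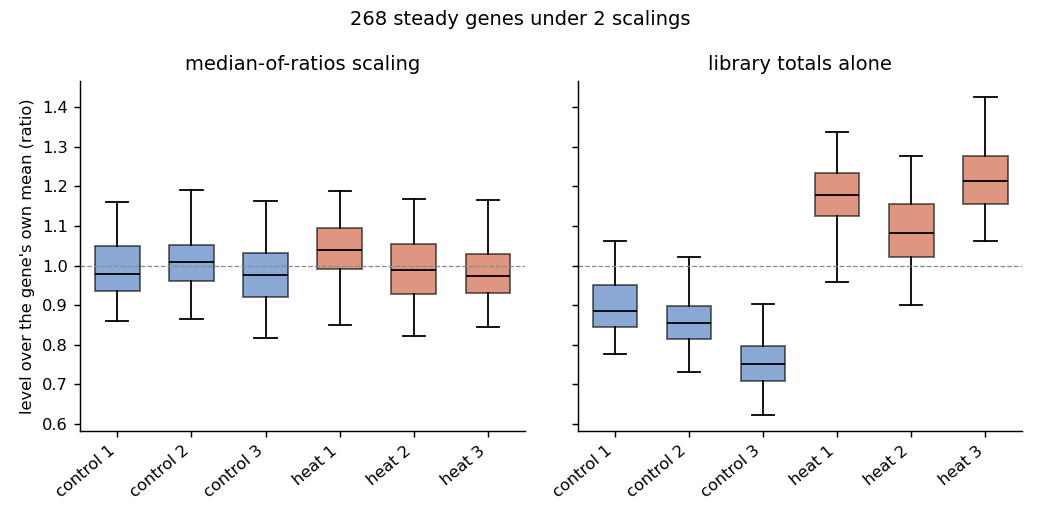
Level of the 268 steady genes relative to each gene's own mean, by library, scaled by size factors (left) and by library totals alone (right); boxes give quartiles and median, whiskers the lowest and highest gene. On the left all medians lie between 0.975 and 1.04, and on the right the control medians lie between 0.751 and 0.887 and the heat medians between 1.08 and 1.21.

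The deposited FPKM values are scaled by library totals, so in them the same genes appear higher in heat. Hxk1 had 23.9, 24.4 and 21.7 FPKM in control and 32.5, 28.5 and 36.4 FPKM in heat. PSRP2 had 81.2, 61.2 and 57.0 FPKM in control and 90.1, 86.2 and 93.6 FPKM in heat. On that scale the groups of both genes did not overlap. The same held for 244 of the 268 members, all higher in heat, where 48.1% of the 3697 well-expressed genes were higher in every heat library than in any control library. The ratio of the heat mean to the control mean of FPKM ran from 1.12 to 1.66 over the members, with a median of 1.39, against a median of 1.31 for the 3697 genes.

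A different set of genes was steady by library totals. The same thresholds applied to CPM of each library's own total kept 111 genes, of which 2 were among the 268, LOC110793940 and LOC110783575. On the size-factor scale all 111 had the lower mean in heat, with log2 ratios from -0.67 to -0.18 and a median of -0.42. The size factor, divided by the library's total relative to the mean total, was 0.791 to 0.930 in control and 1.12 to 1.28 in heat. A gene within 1.3-fold by totals must then have the lower mean in heat by size factors. This direction was thus fixed by the 2 scalings and is no result about these genes. Those with names were the plastid ribosomal protein genes rpL4 (LOC110803006) and RPL1 (LOC110803886), and GPI (LOC110801368), glucose phosphate isomerase of glycolysis. Their ratios of highest to lowest were 1.15, 1.298 and 1.26 by library totals and 1.84, 1.60 and 1.88 by size factors.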

How the data were processed

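RNA sequencing libraries of 3 control and 3 heat samples were compared, grouped by the labels. The authors deposited read counts per gene without normalization, as whole numbers, and FPKM values. For 20305 genes above 0 in all libraries, each FPKM equalled the count over 1 length per gene and the library total (relative tolerance 1e-06), which gave the lengths. Per the submitters' processing notes the tools were HISAT2 2.0.4, HTSeq 0.9.1 and DESeq 1.18.0, with no roles stated. No source used here states the build, annotation, strand use or handling of reads with several alignments, so reads of near-identical copies or overlapping genes may have been split or dropped.

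Size factors were computed over 18904 annotated genes above 0 in all libraries, and CPM used the mean total of annotated rows (pandas 2.3.3). The added gene models, 1.10% to 1.55% of counts, were left out of the rule. The background fit used all 32450 features with edgeR 4.0.16 (quasi-likelihood test, TMM, its filter on low counts, group as the only term, two-sided, Benjamini-Hochberg adjustment over 20145 genes) in R 4.3.3. DESeq2 1.42.0 and limma 3.58.1 were alternatives. The code for size factors and for the fit was run on simulated data with known values. In the simulation of size factors, steady genes had counting error alone and the other genes had no group effect. It therefore does not bear on the choice between size factors and library totals in these data. Since replicates may be technical, p-values cover no more than the spread among these 6 libraries, and counting error is the only error covered by the SD of a count.

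Members, lists and tests were chosen with earlier results of these data known. Genes were named by rule: the 8 smallest ratios, the 8 highest means, 3 on each side of the limit, named members and the 2 largest offsets each way. Gene lists were matched by name or synonym to the BTI_SOV_V1 table, which held 25304 of 30732 gene numbers, and what a name encodes comes from general knowledge of the name. Lists for cytosolic ribosomes, translation factors, respiration, vesicle traffic, ubiquitin ligases and kinases had no names to match and, like promoter and protein motifs, were not analysed here. Replicate libraries all differed by more than sampling noise (chi-square per degree of freedom at least 83.1).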

Additional observations from a re-analysis of the deposited data

How the results depend on the processing

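The number of steady genes followed its thresholds: 70 at a limit of 1.2, 893 at 1.5, 573 at a mean of at least 20 CPM, 94 at 100 CPM and 834 with edgeR's filter on low counts alone. Library totals gave 111 genes, 2 of them shared with the 268. TMM factors gave 265, with 257 shared, and the smallest coefficients of variation shared 240. Counting added models in gave 275, 3 of them added. Chosen after seeing the data, size factors from all rows gave 272 annotated genes (260 shared) and a mean total over all rows 264 (all shared). Leaving out a library gave 317 to 468 genes, with fewer values to compare. The count was 468 without heat library 2 and 427 without control library 3. Over all genes, 5074 were called, against 7759 by library totals, 8012 with limma on log2(FPKM + 1), 8119 on log2(FPKM + 0.1) and 2291 to 4355 without a library. Of these the lowest were 2291 without control library 2 and 2651 without heat library 1. By library totals 6288 of the 7759 were higher in heat, as the median log2 fold change over tested genes went from 0.01 to 0.47. The members moved with it: 132 of 268 were called higher by library totals and 159 in each FPKM fit, and 0 under every other setting. In those 3 fits 52.1%, 53.6% and 53.9% of the 3697 well-expressed genes were called, 1413, 1456 and 1464 of them higher. Under the other settings 20.0% to 41.5% of the well-expressed genes were called. With the replicate number as a block 2628 genes and 0 members were called. The labels do not say whether the numbers pair the samples. Deviations of same-numbered libraries correlated at 0.037, -0.32 and -0.39, and those of differently numbered ones at -0.32 to 0.46. So few libraries cannot settle the pairing. Leaving out 1 library moved the ratio of named genes by more than their own spread in 12 of 168 cases. All 12 were downward, a direction largely fixed in advance, since dropping a library can remove an extreme value and adds none. Depth limits little here, as each member had at least 1702 reads in every library.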

Other observations

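The authors' added gene models included steady transcripts too. Of 43 added models of at least 50 CPM, 3 (6.98%) met the same limit when size factors were taken from all rows. This is close to the 7.25% of annotated genes of at least 50 CPM, found with size factors from annotated rows.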
